A study of Homo sapiens with 288 samples.

Results

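Regulators of transcription in endothelial cells were examined here through 10 of the 17492 genes in the tables. They were taken by name from every table. They are the ETS factors ERG, FLI1, ETV2 and ETS1, the blood and vessel regulators TAL1, LMO2 and GATA2, and the SOXF factors SOX7, SOX17 and SOX18. The cells came from the human embryonic stem cell line H1, grown in E8, a defined medium for such cells. For EC, the endothelial cells, H1 cells received BMP4 at 5 ng/ml with Activin A at 25 ng/ml for 2 days, and then VEGF and WNT for 3 days. For TB, the trophoblast-like cells, they received BMP4 at 50 ng/ml with SB431542 in E7, which is E8 without FGF2. Single cells were captured and their full-length cDNA was amplified on the Fluidigm C1 system, and in each experiment analysed here cDNA kept from 45 EC and 51 TB cells entered library preparation at equal amounts. EQ pooled equal volumes of the cell libraries, EQ-Vary pooled variable volumes, and EQ-75% repeated EQ with less sequencing.

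The labels name neither separate cultures nor a sort, so each cell type in each experiment was 1 sample. Cells are not replicates, and no p-value or standard error was computed. An SD is the spread over single cells, and intervals cover counting error only. Values are CPM, counts scaled to a total of 1000000 in each cell, and unless another experiment is named they are those of EQ, in the 38 EC and 48 TB cells that passed the study's limits on depth. The passing EC libraries held 471578 to 3966798 counts and the TB libraries 365536 to 3479243, so that 1 count was worth about 0.494 CPM in the median EC library. A gene was called detected in a cell at a rounded count of at least 1.

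The genes lie on 7 chromosomes of GRCh38, by GENCODE v44. ERG (ENSG00000157554) is at chr21:38380027-38661780, FLI1 (ENSG00000151702) at chr11:128686535-128813267, ETV2 (ENSG00000105672) at chr19:35641745-35644871 and ETS1 (ENSG00000134954) at chr11:128458761-128587558, next to FLI1. TAL1 (ENSG00000162367) is at chr1:47216290-47232225, LMO2 (ENSG00000135363) at chr11:33858576-33892076 and GATA2 (ENSG00000179348) at chr3:128479427-128493201. SOX7 (ENSG00000171056) is at chr8:10723768-10730511, SOX17 (ENSG00000164736) at chr8:54457935-54460892 and SOX18 (ENSG00000203883) at chr20:64047582-64049639. Of the 10 genes, 7 overlap a long non-coding RNA gene of that annotation, and whether the counting used strand was not given in the sources used here.

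ETS factors share a winged-helix domain that binds a GGAA core, and ERG and FLI1 hold mature endothelium in its state, while ETV2 acts briefly when blood and vessel precursors are specified. TAL1 is a basic helix-loop-helix protein that binds E-boxes with E-protein partners, and the adaptor LMO2 joins it to LDB1 and to GATA factors such as GATA2. SOX7, SOX17 and SOX18 form the F group of the SOX proteins, which bind DNA through an HMG box and take part in the growth and arterial, venous and lymphatic fate of vessels.

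Promoter sequences were found in the RefSeq table (GRCh38.p14) for 4 of the 10 genes, with 9 start sites. FLI1, ETS1, LMO2, SOX7, SOX17 and SOX18 had no entry. The 250 bases before a start site are shown for 3 of these genes, because their windows held the letters of motifs that members of this group bind. Capitals mark matches, on either strand, to AGGAAG for ETS factors, AGATAA for GATA factors or AACAAT for SOX factors. Each sequence is written 5′ to 3′ on the strand of its gene.
ETV2, chr19:35641495-35641744, plus strand: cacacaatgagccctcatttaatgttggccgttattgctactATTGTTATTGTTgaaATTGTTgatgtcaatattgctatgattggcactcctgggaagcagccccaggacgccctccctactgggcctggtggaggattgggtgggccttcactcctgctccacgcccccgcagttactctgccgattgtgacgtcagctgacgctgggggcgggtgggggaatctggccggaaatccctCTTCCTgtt
ERG, start site 3, chr21:38498505-38498754, minus strand: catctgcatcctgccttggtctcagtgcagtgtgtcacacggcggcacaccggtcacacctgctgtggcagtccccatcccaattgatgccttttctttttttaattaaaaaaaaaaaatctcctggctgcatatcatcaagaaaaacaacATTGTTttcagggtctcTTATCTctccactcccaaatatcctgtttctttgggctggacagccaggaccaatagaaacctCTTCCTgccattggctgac
TAL1, start site 1, chr1:47232336-47232585, minus strand: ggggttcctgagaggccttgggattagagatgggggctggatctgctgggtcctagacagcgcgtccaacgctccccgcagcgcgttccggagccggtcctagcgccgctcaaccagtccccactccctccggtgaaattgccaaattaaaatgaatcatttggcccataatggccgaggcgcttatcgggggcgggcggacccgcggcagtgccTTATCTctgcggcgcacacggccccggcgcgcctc
TAL1, start site 2, chr1:47231716-47231965, minus strand: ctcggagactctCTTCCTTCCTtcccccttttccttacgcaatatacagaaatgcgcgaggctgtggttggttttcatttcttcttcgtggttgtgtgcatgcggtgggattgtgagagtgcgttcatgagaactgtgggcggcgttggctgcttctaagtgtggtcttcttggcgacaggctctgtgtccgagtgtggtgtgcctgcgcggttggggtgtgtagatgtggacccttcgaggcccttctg
Of all 35116 promoter windows of this length, 28.7% held AGGAAG, 9.17% AGATAA and 8.98% AACAAT. The ETV2 window held 3 matches to AACAAT and 1 to AGGAAG, and that of ERG start site 3 held 1 to each of the 3 motifs. ERG start site 4 overlaps it, and ERG start sites 1 and 2 held none of the 3. The first TAL1 window held 1 match to AGATAA, and the second held 2 overlapping matches to AGGAAG. Neither GATA2 window held any of the 3. CANNTG, the E-box that TAL1 binds, was in 61.8% of all windows and was not marked. These are matches of letters and were not measured as binding sites.

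The identity of the cells was checked against markers. Of 28 endothelial genes with a mean of at least 1 CPM in either type, 24 were at least 4-fold higher in EC and 0 in TB, led by KDR, a VEGF receptor, with a mean of 1600 CPM in EC and 4.27 in TB. Of 15 trophoblast genes, 10 were at least 4-fold higher in TB and 0 in EC. Of all 12751 genes tested, 10.8% were at least 4-fold higher in EC and 16% in TB. LYVE1, a lymphatic receptor, had no count in EC, and CDX2, CGB5 and CGA, which mark trophoblast stages, had means of at most 2.93 CPM in TB. Of 9 endoderm genes that passed the same filter, 5 were at least 4-fold higher in EC, among them CXCR4, LHX1 and GATA4, and 3 in TB, but the defining endoderm genes GSC, EOMES and CER1 had no count in EC and FOXA2 a mean of 0.714 CPM.

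EC cell 15 stood apart from the other EC cells. It had the lowest CDH5 (34.4 CPM) and KDR (51.3 CPM) of the 38 EC cells, and the highest NANOG, at 1502 CPM where the next cell had 202. TFAP2C was at 995 CPM in this cell and at most 52.0 in the others, and NANOS3 was at 83.2 CPM against at most 0.363. Its 17 trophoblast list genes summed to 2272 CPM, the highest of the EC cells, but KRT18 (1254 CPM) and TFAP2C (995 CPM) made up nearly all of that. Its library held 9070 genes, so that it was not a poor library. It carried the lowest FLI1 (26.9 CPM) and SOX7 (19.9 CPM) and 3.99 CPM of ERG, but 229 CPM of SOX17, the second highest value.

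EC cells had counts of 8767 of the 17492 genes on average. In them 9 of the 10 factors were detected in most cells, and ETV2 in few. Of the 10, 8 had a mean at least 4-fold higher in EC than in TB, which held for 10.8% of the 12751 genes tested, and 0 were 4-fold higher in TB, where 16% of genes were. The 2 that were not 4-fold different were ETV2 and GATA2. For ETV2 the ratio rests on few cells of both types. It was 7.02 without the highest TB cell and 1.13 without the highest EC cell. The 8 were the same number in EQ-Vary, in EQ-75% and without EC cell 15.

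**Figure D1:**
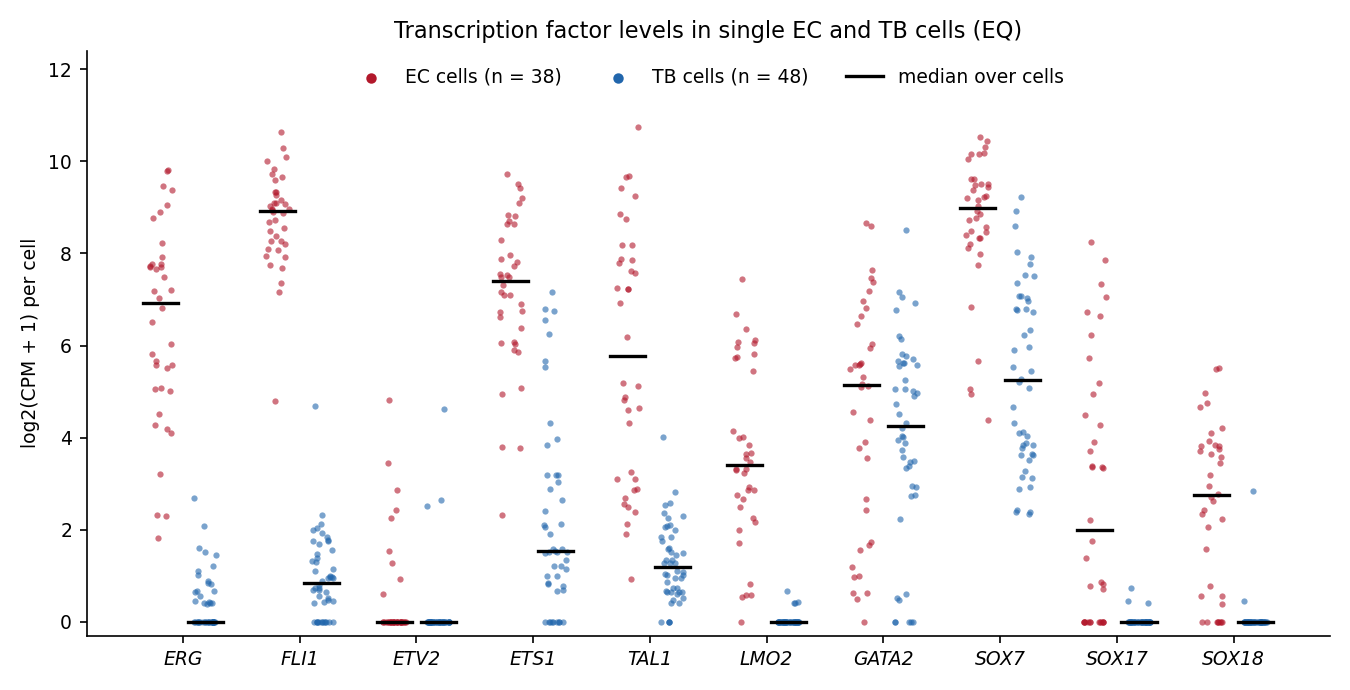
Levels of the 10 factors in single cells of EQ, with log2(CPM + 1) on the vertical axis, 1 point per cell, 38 EC and 48 TB cells, and a black line at the median. FLI1 is the factor whose EC and TB points do not overlap, GATA2 and ETV2 overlap nearly throughout, and SOX7 is detected in every TB cell.

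Among the ETS factors, FLI1 was the steadiest. FLI1 in EC ranged from 26.9 to 1598 CPM with a median of 483, and was above 100 CPM in 37 of the 38 cells. In TB it ranged from 0 to 24.6 CPM with a median of 0.797. The lowest EC cell was thus above the highest TB cell, which held for 0.0549% of the 12751 genes tested. The means were 525 ± 328 CPM (SD, n = 38 cells) and 1.57 ± 3.56 CPM (SD, n = 48 cells), a 334-fold difference. The lowest EC cell was EC cell 15. In EQ-75% the groups also stayed apart (EC from 19.7 CPM, TB to 11.6 CPM), but in EQ-Vary the lowest EC cell, at 27.3 CPM, was below the highest TB cell, at 29.3 CPM. Without EC cell 15 the lowest EC cell had 142 CPM in EQ, 152 CPM in EQ-Vary and 143.5 CPM in EQ-75%, above every TB cell. That TB cell was TB 47 in all 3 experiments.

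ERG, which shares most of its DNA-binding domain with FLI1, was as widely detected but far more uneven. It ranged from 2.52 to 899 CPM over EC cells with a median of 121, and 20 of the 38 cells were above 100 CPM. The 6 cells with the most ERG held more than 50% of the ERG of all EC cells, where for FLI1 it took 11. In TB, ERG ranged from 0 to 5.47 CPM with a median of 0. The EC mean of 202 ± 244 CPM (SD, n = 38 cells) was 397 times the TB mean of 0.510 ± 0.995 CPM (SD, n = 48 cells), and 3 EC cells were at or below the highest TB cell. That TB cell, TB 40, was the shallowest passing TB library, in which 5.47 CPM is 2 counts.

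ETS1, an ETS factor also found in lymphocytes and many other cells, was high in EC and scattered in TB. In EC it ranged from 3.96 to 848 CPM with a median of 169, and in TB from 0 to 142.5 CPM with a median of 1.89. The mean was 15.0 times higher in EC (236 ± 217 CPM against 15.7 ± 33.2 CPM, SD, n = 38 and 48 cells). The 2 groups overlapped: 18 EC cells were at or below the highest TB cell, and 10 TB cells were at 10 CPM or more. No TB cell reached the EC median.

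ETV2 was detected in 9 of 38 EC cells (23.7%, exact binomial 95% interval 11.4 to 40.2%) and in 3 of 48 TB cells (6.25%, interval 1.31 to 17.2%). Its highest EC level was 27.3 CPM, in EC cell 38, followed by 9.99 CPM, and the highest TB level was 23.7 CPM, in TB 17. Over the 24 endothelial genes at least 4-fold higher in EC, TB 17 summed to 188 CPM, rank 3 of the 48 TB cells. TB cells had 7.999 to 657 CPM and EC cells 629 to 11594 CPM, a gap that is partly set by choosing genes higher in EC on these cells. Over all 29 endothelial genes TB cells had 143 to 1484 CPM, the highest in TB 17, and EC cells 775 to 13613.5 CPM. EC cell 38 alone held 48.3% of the ETV2 in EC, so the 2.12-fold ratio of the means (1.49 ± 4.77 against 0.700 ± 3.53 CPM) rests on few cells. TB 17 held 70.4% of the ETV2 in TB, and the ratio was 7.02 without it and 1.13 without EC cell 38. The same cells carried it when they were measured again. Of 37 EC cells that passed in all experiments, 6 had an ETV2 count in every experiment and 27 in none. All 9 EC cells with ETV2 also had counts of ERG, FLI1, ETS1, TAL1, LMO2, GATA2 and SOX7. Each of these was counted in at least 37 of the 38 EC cells. All 9 also had SOX18, which 30 of the 38 had, and 7 had SOX17, which 25 of the 38 had.

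TAL1 reached the highest level of any of the 10 factors in a single EC cell. It ran from 0.913 to 1718 CPM with a median of 53.4, and the highest cell, EC cell 23, held 21.3% of all TAL1 in EC. Of the 38 cells, 18 were above 100 CPM and 12 were at or below the highest TB value of 15.1 CPM. In TB it was counted in 44 of 48 cells but at a median of 1.28 CPM. The mean was 108 times higher in EC (212 ± 340 CPM against 1.96 ± 2.42 CPM, SD). Of the nonzero TAL1 values, 90% were not whole numbers, as an estimate gives where it shares reads among genes. Of the nonzero ETS1 values, 82.1% were not whole. None of the 5071 windows of 51 bases of TAL1 occurred in another protein-coding gene. The windows were matched exactly, while the alignment allowed 2 mismatches, so sharing of reads between similar sequences was not tested.

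LMO2 was lower in EC and was counted in few TB cells. Its EC levels ranged from 0 to 172 CPM with a median of 9.57, and 37 of 38 cells had a count. In TB 4 of 48 cells had a count and none was above 0.591 CPM. The ratio of the pooled counts was 675, with a counting interval of 263 to 2478. At a depth of 250000 counts per library LMO2 would be detected in 78.7% of EC cells and 0.841% of TB cells.

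GATA2, which acts in blood and vessel precursors and also in trophoblast, differed little between the cell types. In EC it ranged from 0 to 404 CPM with a median of 34.4, and in TB from 0 to 362 CPM with a median of 18.2. The groups overlapped almost completely, and 16 TB cells were above the EC median. The mean of 65.7 ± 95.5 CPM in EC was 1.72 times the 38.2 ± 59.2 CPM of TB, which is within either SD. At 250000 counts the expected detection was 78.3% in EC and 80.7% in TB. In EC 8 cells were above 100 CPM and 32 reached 1 CPM.

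SOX7 was the most abundant SOXF factor. Its EC levels ranged from 19.9 to 1470 CPM with a median of 503, and 34 of 38 cells were above 100 CPM. In TB it was detected in all 48 cells, from 4.03 to 593 CPM with a median of 36.97. The mean was 6.29 times higher in EC (573 ± 386 against 91.1 ± 126 CPM, SD), with 22 EC cells at or below the highest TB cell. SOX7 overlaps, on the same strand, a readthrough gene (ENSG00000258724, chr8:10725399-10839847) that joins it to the neighbouring PINX1, and 38.5% of the 51-base windows of SOX7 transcripts also occur in that gene. The readthrough gene was not analysed here, and PINX1 itself (ENSG00000254093) shares 0 windows with SOX7. Of the nonzero SOX7 values, 96.8% were not whole. How far reads of the readthrough gene enter the SOX7 values was not tested.

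SOX17, which also acts in endoderm and germ cells, was patchy. It was detected in 25 of 38 EC cells (65.8%, interval 48.6 to 80.4%) from 0 to 302 CPM, with a median of 3.00. The 3 cells with the most SOX17 held more than 50% of it, and they included EC cell 15. The mean was 35.1 ± 68.4 CPM, and 29.9 CPM without that cell. In TB 3 cells had 1 count each, and the ratio of the pooled counts was 1076 with a counting interval of 368 to 5222. In the 37 EC cells that passed in all experiments, 20 had SOX17 in every experiment, 8 in none, 7 in 2 and 2 in 1, and the last 9 never had more than 5 counts. The patchiness was thus repeated in the same cells.

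SOX18, a factor of lymphatic and vessel growth, was low but common. It was detected in 30 of 38 EC cells (78.9%, interval 62.7 to 90.4%), with a median of 5.73 and a highest level of 44.7 CPM. In TB 2 of 48 cells had a count. The mean was 70.6 times higher in EC (9.59 ± 11.4 against 0.136 ± 0.888 CPM, SD). TB 47, the TB cell with the most FLI1, also had the most SOX18, at 6.15 CPM, with 3.35 CPM when measured again in EQ-Vary and 2.68 CPM in EQ-75%. Without TB 47 the TB mean of SOX18 was 0.00798 CPM, from 1 count, and the ratio of the pooled counts was 845 with a counting interval of 151 to 33431. The 24 endothelial genes higher in EC, chosen as such on these cells, summed to 112 CPM in TB 47, where the TB median was 53.8 CPM. Over all 29 endothelial genes TB 47 had 490 CPM, below the TB median of 575 CPM, and was at rank 29 of the 48 TB cells.

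Low values of the factors in TB cells were set beside those of endothelial genes in the same libraries. For 21 endothelial genes with a mean of at least 50 CPM in EC, the TB mean was 0.142 to 66.0% of the EC mean with a median of 0.733%, and they were detected in a median of 32 of 48 TB cells. ERG (0.252%), FLI1 (0.299%), LMO2 (0.127%) and SOX17 (0.0819%) were below that median. The median does not separate expression from background, because the set holds genes such as ARHGAP29, with 395 CPM in TB. LMO2 and SOX17, with EC means of 26.5 and 35.1 CPM, were also below the 50 CPM asked of that set. Whether these 4 factors are expressed in TB was not tested. TAL1 (0.925%) and SOX18 (1.42%) were just above it, and SOX18 was at 0.0832% without TB 47. ETS1 (6.66%), SOX7 (15.9%), ETV2 (47.1%) and GATA2 (58.2%) were higher, with ETV2 at 14.2% without TB 17. The labels place 96 libraries on a lane, and whether reads passed between libraries was not tested.

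Per kilobase of the canonical transcript, the order of the mean levels in EC was SOX7 with 178 CPM per kilobase, FLI1 137, ETS1 45.9, TAL1 45.7, ERG 41.3, GATA2 19.4, SOX17 15.0, LMO2 12.7, SOX18 5.15 and ETV2 0.9996. Neighbours in this order differed by less than the larger SD between cells, apart from FLI1 and ETS1, whose SDs were 85.6 and 42.3. In TB the order began with SOX7 at 28.3 and GATA2 at 11.3 CPM per kilobase. By mean CPM, SOX7 ranked at the 98.6th percentile of all genes in EC and FLI1 at the 98.4th, while SOX18 ranked at the 52.4th.

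**Figure D2:**
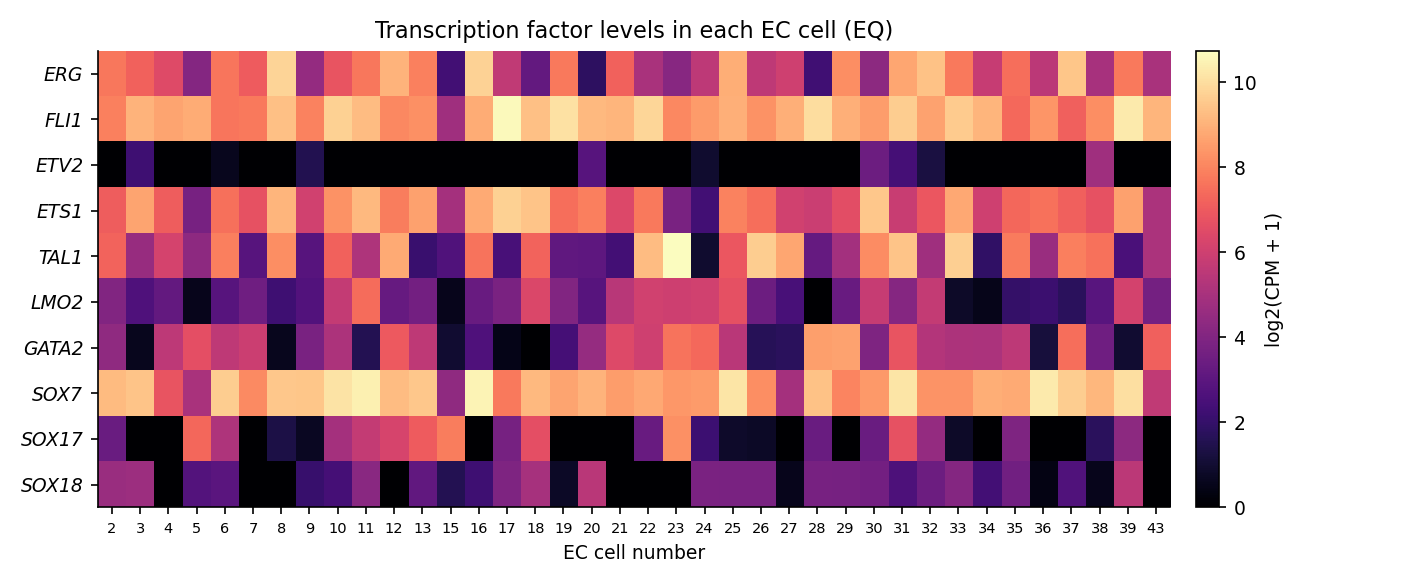
Levels of the 10 factors in each of the 38 EC cells of EQ, in order of cell number, as log2(CPM + 1) in colour. FLI1 and SOX7 are bright in nearly every cell, whereas ERG, TAL1, GATA2 and SOX17 change from cell to cell, and EC cell 15 is dark in FLI1, SOX7 and ERG but bright in SOX17.

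Single EC cells carried most of the set at once. Of the 38 cells, 7 had a count of all 10 factors, 14 of 9, 13 of 8 and 4 of 7, and no cell had fewer. TB cells had counts of 3 to 7. Of all 17492 genes, EC cells had counts of 8767 on average and TB cells of 9274. SOX17 and SOX18 were detected together in 21 EC cells, SOX17 alone in 4, SOX18 alone in 9 and neither in 4. At the limit of 1 count, which factors a cell had was thus nearly uniform apart from ETV2, SOX17 and SOX18, while the amounts differed. For GATA2 and LMO2 this depended on the limit. At 5 counts GATA2 was detected in 29 of the 38 EC cells and LMO2 in 33. ERG, FLI1, ETS1, TAL1 and SOX7 were each still detected in at least 36. Of 37 EC cells that passed in all experiments, 29 had GATA2 in every experiment and 31 had LMO2.

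The amounts of the factors had mostly low rank correlations between EC cells. The error of capture, reverse transcription and amplification was not measured, so a low value does not show that 2 factors vary independently. Rank correlations were taken over the 38 cells for the 9 factors detected in at least 25% of them, and these cells share a culture medium, a capture system and a sequencing pool. Over the 36 pairs the median rho was 0.093, beside 0.029 over all 34756953 pairs of 8338 genes, and 26 pairs (72.2%) were positive, beside 56.6% of all gene pairs. ERG and FLI1 had a rho of 0.01, TAL1 and LMO2 0.04, LMO2 and GATA2 -0.02, and SOX7 and SOX17 0.09. In EQ 1 pair, ETS1 and SOX7 (0.43), was at or above 0.4, where 2.02% of all gene pairs were, and the next were ERG and SOX7 (0.399) and ETS1 and SOX18 (0.382). That count depended on the setting. It was 0 without EC cell 15, where ETS1 and SOX7 had 0.386, and 5 under TMM factors, all with ERG or ETS1. Leaving out EC cell 15 moved the 36 values by -0.08 to 0.09 and turned the sign of 3, among them ERG and FLI1 (-0.06) and TAL1 and LMO2 (-0.01), while SOX7 and SOX17 went to 0.18. Of the 36 pairs, 25 had the same sign under all 10 alternatives tried. The 11 whose sign changed had a rho of no more than 0.16 in either direction.

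ETS1 and GATA2 had the strongest correlation of the 36 pairs, and it was negative. Their rho was -0.57, where 0.568% of all gene pairs were at -0.4 or below. It was -0.55 in EQ-Vary, -0.46 in EQ-75% and -0.65 without EC cell 15. The 2 cells with the most GATA2 (EC cell 29 with 404 CPM and EC cell 28 with 387 CPM) had 96.6 and 59.1 CPM of ETS1, below the ETS1 median of 169. The cells with the least GATA2 (EC cell 18 with none and EC cell 17 with 0.417 CPM) had 684 and 848 CPM of ETS1. GATA2 was the factor most often on the negative side, with SOX18 at -0.28 and FLI1 at -0.21. With GATA3, another GATA factor, GATA2 had a rho of 0.05.

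**Figure D3:**
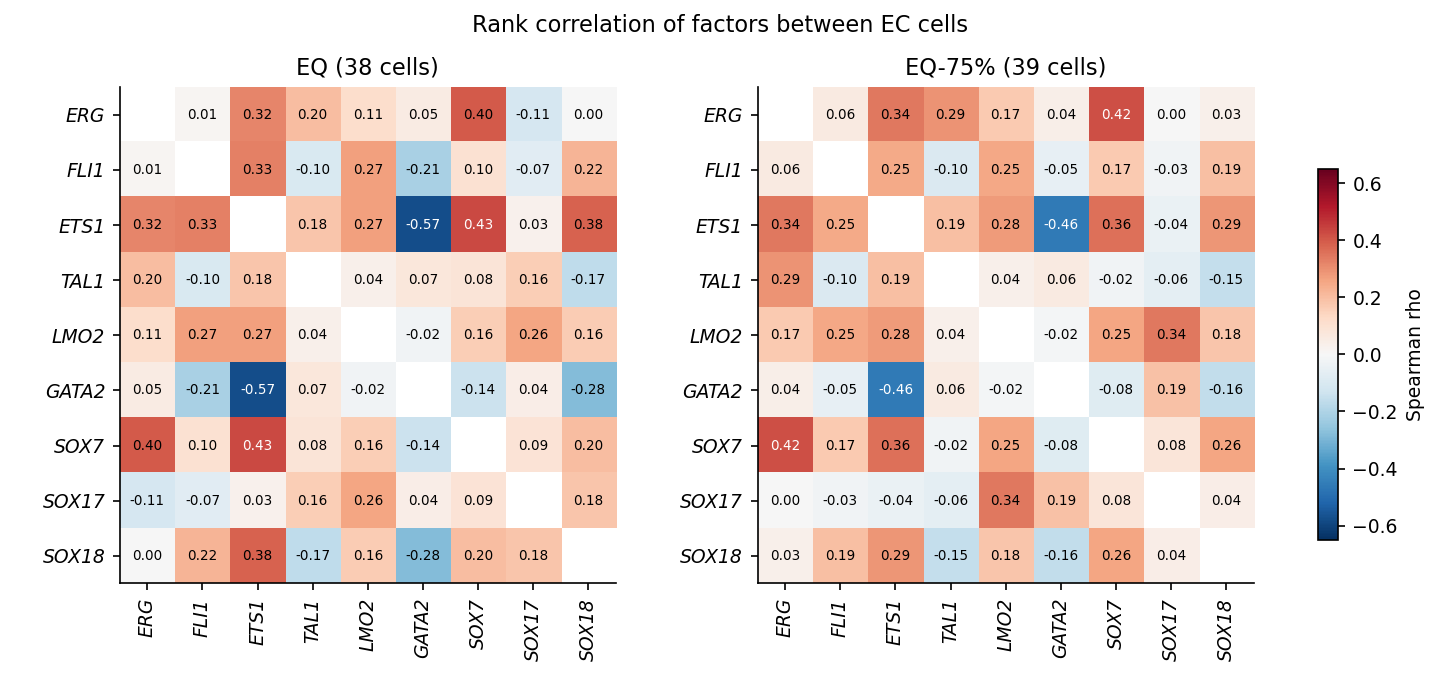
Spearman rho between the CPM of 9 factors over EC cells, in EQ (left, 38 cells) and EQ-75% (right, 39 cells), red for positive and blue for negative. The pair of ETS1 and GATA2 is the darkest blue in both panels, at -0.57 and -0.46, and most other squares are pale.

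In TB cells 6 of the factors could be compared in the same way, over 48 cells and 15 pairs with a median rho of 0.039. ETS1 and SOX7, which were positively correlated in EC, had -0.42 in TB, where 0.331% of all gene pairs were at -0.4 or below, and -0.29 and -0.25 in EQ-Vary and EQ-75%. The difference between the cell types was not tested. ETS1 and GATA2 had 0.11 in TB. ERG, FLI1 and TAL1 were near 1 CPM or below in most TB cells, so that their correlations there rest on single counts.

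The factors were then set beside genes that mark endothelium. The median rho of SOX7 with 26 endothelial genes was 0.17, beside -0.05 with all genes, and 19 of the 26 were positive. With 7 mesenchymal genes its median was close to that, at 0.16, and for LMO2 and SOX18 20 of the 26 endothelial genes were positive. CDH5, the VE-cadherin of endothelial junctions, had 0.45 with SOX7, and FLT1, a VEGF receptor, 0.43. SOX7 ran against the pluripotency genes NANOG (-0.65) and POU5F1 (-0.50), and these were -0.62 and -0.45 without EC cell 15 and -0.68 and -0.59 in EQ-75%. ERG showed the same sign with POU5F1 (-0.45). With endothelial genes ERG ran both ways, with 0.30 for PECAM1, an adhesion molecule of endothelial cells, 0.24 for CDH5 and -0.35 for NOTCH4, a Notch receptor, and a median of 0.08 with 18 of 26 positive. FLI1 had 0.44 with PECAM1 and -0.02 with CDH5. ETS1 had 0.43 with FLT1, 0.34 with CD34 and 0.35 with DLL4, a Notch ligand of arterial and tip cells, chosen from its higher values, and 18 of the 26 were positive. For the other 8 factors the median with the endothelial list was between -0.04 for GATA2 and 0.12 for ETS1.

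The E-protein partner genes of TAL1 and LMO2 were present in EC. TCF4 had a mean of 154 CPM in EC and 69.3 in TB, TCF12 96.9 and 68.2, and SSBP2, a stabiliser of LDB1, 271 and 147. LDB1 itself had 9.94 CPM in EC and 25.9 in TB. Of 12 partner genes tested, 3 were at least 4-fold higher in EC and 1 in TB, beside 10.8% and 16% of all genes tested. The 3 were TAL2, a close relative of TAL1, at 32.03 CPM against 0.0142, LMO3 and ZFPM2. LMO3 was counted in 1 EC cell, EC cell 24, and ZFPM2 had 28.3 CPM in EC, 11.6 without EC cell 39. The 1 higher in TB was LMO4, a relative of LMO2. The rho of TAL1 with TCF4 was -0.22, and -0.33 in EQ-75%, while that of LMO2 with TCF4 was -0.02. The rho of TAL1 was 0.10 with TCF12 and 0.08 with LDB1, and that of LMO2 with LDB1 was 0.11. Of 7 blood genes tested, MYB (28.6 CPM in EC) and VAV1 (4.21 CPM, and 2.54 without EC cell 32) were at least 4-fold higher in EC and IKZF1 (0.0913 CPM in EC) in TB, while the blood factors SPI1 and GFI1 had no count in EC. RUNX1, which opens blood formation from endothelium, had a mean of 9.53 CPM and was detected in 11 of 38 EC cells, and without EC cell 10 its mean was 3.08 CPM.

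Some factors ran with mitosis genes or with the number of genes detected. The median rho with 12 mitosis genes was -0.30 for FLI1, with 0 positive, and 0.20 for both GATA2 and TAL1, with 12 and 11 positive, beside -0.08, 0.04 and 0.01 with all genes. The number of genes detected in a cell had a rho of -0.40 with FLI1 and 0.49 with SOX17. With the number of genes and the total count taken into account, ETS1 and GATA2 kept a rho of -0.58, FLI1 and LMO2 went from 0.27 to 0.38 and FLI1 and SOX17 from -0.07 to 0.18. The part of library complexity in the other results was not tested.

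The genes whose levels ran closest to each factor were mostly not endothelial regulators. For each of 9 factors the 3 genes with the highest rho over the 38 EC cells were taken from 8337 candidates, which gave 27 genes with rho from 0.48 to 0.66. None of these was another of the 10 factors and none was in the 14 gene lists. GATA2 ran closest to C11orf1 (0.66), SERPINI1 (0.64) and INMT (0.61). ETS1 ran closest to MAP3K1, a kinase of stress signalling (0.64), AFAP1L1 (0.63) and TM4SF18 (0.59), the last with 699 CPM in EC and 1.22 in TB. SOX17 ran closest to the nuclear receptor NR2F6 (0.61), SOX18 to the cytokine IL32 (0.61), LMO2 to TMEM165 (0.61), TAL1 to NDRG3 (0.59), SOX7 to SWAP70 (0.57), FLI1 to CRIM1 (0.54) and ERG to the actin-binding profilin PFN1 (0.51). In EQ-75%, 22 of the 27 were still at 0.4 or above, and the lowest was 0.26. These are the highest of 8337 values for each factor, chosen on the same cells.

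Relatives of the factors in the same gene families were compared in the same way. Of 19 other ETS genes tested, 5 were at least 4-fold higher in EC and 2 in TB. Of all 12751 genes tested, 10.8% were that much higher in EC and 16% in TB, and the counts of SOX and GATA genes are few. The 5 were ELK3 (343 CPM in EC, 3.31 in TB), ETV5 (279 and 0.713), ETV4 (76.1 and 0.141), ETV1 (22.8 and 0.149) and FEV. ETV1, ETV4 and ETV5 make up the PEA3 group, which responds to FGF signalling. ELF3, an epithelial ETS factor, was higher in TB (97.2 CPM against 0.224 in EC), as was ELK1 (10.0 against 0.923). ETV6 (304 and 119 CPM), ELF1 (170 and 42.7) and ELK4 (77.0 and 31.9) were higher in EC by less than 4-fold, and GABPA (29.3 and 43.9) differed little. Among 6 other SOX genes tested, SOX8 was 4-fold higher in EC (6.20 and 0.0298, and 1.53 in EC without EC cell 29), SOX9 (2.33 and 84.4) and SOX15 (1.30 and 22.3) in TB, and SOX11 had 311 and 109 CPM. Of the GATA genes, GATA4 (10.3 and 0.0530) and GATA5 (8.99 and 0.389) were 4-fold higher in EC, and GATA3 had 120 CPM in EC and 236 in TB. GATA4 was detected in 7 EC cells and GATA5 in 6, and without the highest cell their EC means were 3.62 and 3.95 CPM. In the same way 1 cell held most of the EC level of FEV, ELK1, SOX9 and SOX15, whose EC means without it were 1.12, 0.123, 0.208 and 0.151 CPM.

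**Figure D4:**
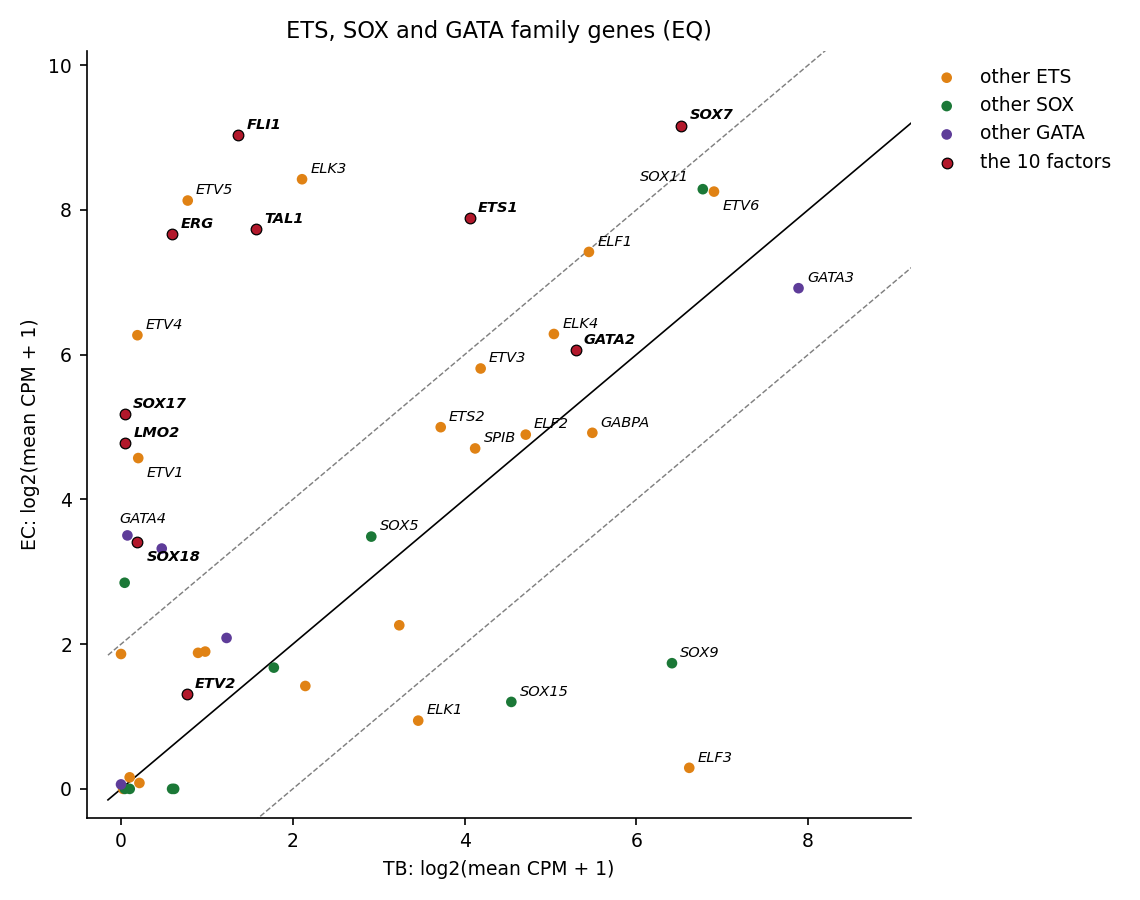
Mean levels of ETS, SOX and GATA family genes in EQ, TB on the horizontal and EC on the vertical axis, both as log2(mean CPM + 1), with the 10 factors in red, a solid line of equality and dashed lines at 4-fold on this scale. ERG, FLI1 and TAL1 lie at the upper left with ELK3 and ETV5, GATA2 lies near the line of equality, and ELF3, SOX9 and SOX15 lie below it.

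Among 16 other transcription factors of endothelium, 8 were at least 4-fold higher in EC and 2 in TB, beside 10.8% and 16% of all genes tested. BCL6B had 428 CPM in EC and 0.465 in TB, MEF2C 288 and 1.07, and MECOM 250.2 and 0.585. EPAS1, the endothelial hypoxia factor, was higher in TB, with 725 CPM against 21.6 in EC (10.1 without EC cell 13), as was NR2F2, a factor of venous fate, with 182 against 9.07.

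The same cDNA was measured again in EQ-Vary and EQ-75%, which shows how steady the values of a cell were. Over EC cells the rho between EQ and EQ-75% was 0.99 for ERG and SOX7, 0.98 for ETS1, 0.97 for TAL1 and LMO2, 0.96 for GATA2, 0.93 for FLI1, 0.90 for SOX17 and ETV2 and 0.86 for SOX18. The differences between EC cells in ERG, ETS1, TAL1 and GATA2 were thus larger than the difference between repeats. The repeats began from the same amplified cDNA, so they do not cover the error of capture, reverse transcription and amplification. In cells with at least 10 counts, the median absolute log2 ratio of EQ-75% to EQ was 0.09 for SOX7 and FLI1, 0.13 for ETS1 and 0.39 for GATA2.

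SOX18 was the factor whose mean in EC shifted most between EQ and EQ-75%. In the 37 EC cells that passed in both, its mean was 9.53 ± 11.6 CPM in EQ and 4.98 ± 7.12 CPM in EQ-75% (SD), a ratio of 0.522. It was lower in 25 cells, higher in 4 and at 0 in both in the rest. Of 10 cells with at least 10 counts, 9 were lower. ETV2 had a ratio of 0.593. A mean at least 1.5-fold lower in EQ-75%, as in these 2 of the 10 factors, was found in 4.17% of 11550 genes, and one at least 1.5-fold higher, as in 0 factors, in 0.762%. LMO2 had a ratio of 0.841, GATA2 0.917 and SOX17 1.22, and the other 5 were between 0.965 and 1.03. In EQ-Vary the ratio of SOX18 was 0.964, and the 10 ratios in EC were between 0.920 and 1.10. At 1.5-fold, 0 of the 10 factors were lower there, beside 0.251% of 11563 genes, and 0 were higher, beside 0.19%. In TB 5 of the factors had a mean of at least 1 CPM in either experiment, FLI1, ETS1, TAL1, GATA2 and SOX7. FLI1 had a TB mean of 1.57 CPM in EQ and 0.818 in EQ-75%, a ratio of 0.521, in 47 cells, while 1.53% of 11938 genes were at least 1.5-fold lower there and 0.268% higher. Of the 47 cells, 1 had at least 10 counts of FLI1 in both and 0 had that many of TAL1. The TB ratios of FLI1 and TAL1 thus rest on few counts. In EQ-Vary 0 of these 5 moved by 1.5-fold in TB, where 0.184% of 11943 genes were lower and 0.067% higher.

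SOX18 and ETV2 are rich in G and C, with 69.3% and 66.3% in their canonical transcripts, which placed them in the highest of 10 groups of genes by GC content. The 1153 genes there had a median ratio of EQ-75% to EQ of 0.796 in EC, while the 1153 genes with the lowest GC content had 1.12. SOX17, with 58.2% GC, lay in the group next to the highest, whose median was 0.842, yet had a ratio above 1. The part of base composition in the SOX18 value was not tested. In EQ-75% SOX18 was still detected in 29 of 39 EC cells, and 90.9 times higher in EC than in TB.

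**Figure D5:**
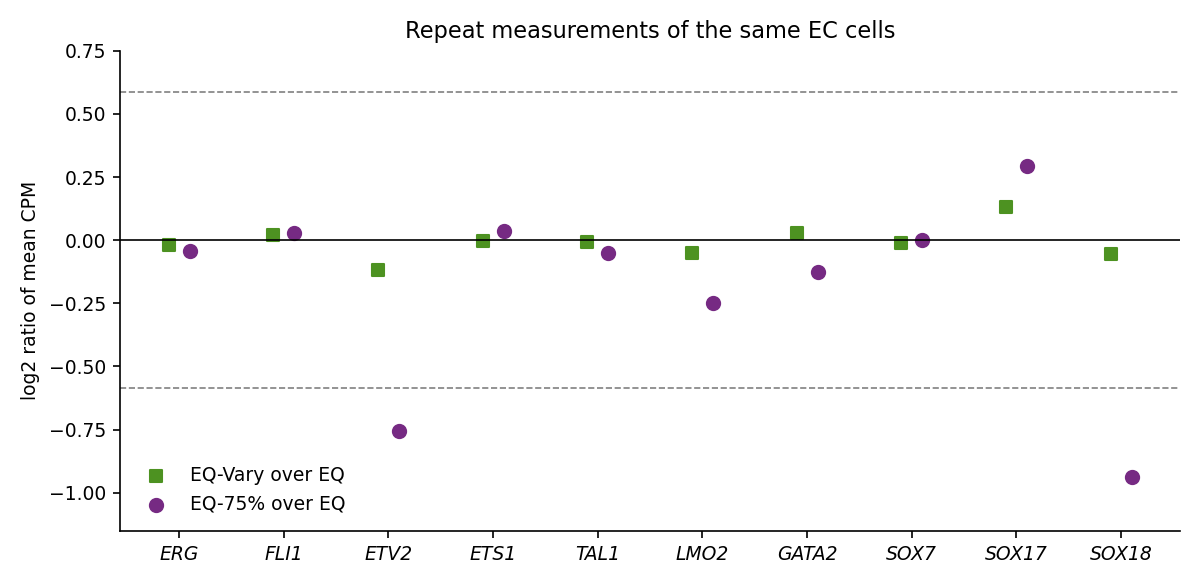
Ratio of the mean CPM of each factor in EQ-Vary (green squares) and EQ-75% (purple circles) to its mean in EQ over the same EC cells, on a log2 scale, with dashed lines at 1.5-fold. SOX18 (0.522) and ETV2 (0.593) in EQ-75% lie below the lower line, and every EQ-Vary value lies close to 0.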

How the data were processed

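Expected counts, estimated with RSEM 1.2.31, were deposited by the authors for 96 cells in each of 3 experiments. Per the methods, reads trimmed to 51 bases were aligned by Bowtie 1.2.3, allowing 2 mismatches, to the protein-coding genes of GRCh38. The counts were not normalized. They were rounded here and scaled to CPM by the total count of a cell. Cells passed at a log10 total count of at least 5.4 with at most 31% of counts in the 50 most abundant genes. No doublet caller was run. A difference between EC and TB was called at 4-fold between mean CPM, among genes with at least 1 CPM in either type. Detection at matched depth was the exact expectation at 250000 counts. Correlations between genes used genes detected in at least 50% of cells with at least 5 CPM, and factors detected in at least 25%. The rule for named genes took the 10 factors, the 3 best correlated genes of each factor detected in at least 50% of EC cells, the 3 most abundant genes of each list in EC and in TB, family genes of at least 10 CPM, and genes behind a count of 5 or fewer. Listed genes named outside that rule were chosen after their values were seen, and not every gene the rule takes is described. The 10 genes and the 14 lists were chosen with earlier results of these data known. Alternatives were TMM factors (edgeR 4.0.16), scaling by the 2602 genes with a count in every cell, unrounded counts, all cells of at least 100000 counts, other thresholds, partial correlation and, chosen after seeing the data, leaving out EC cell 15 or the highest cell of a gene. The steps were tested on simulated data. The tools were Python 3.11.15, R 4.3.3, pandas 2.3.3, numpy 2.4.6, matplotlib 3.10.9 and scipy 1.17.1. Of the sample columns, 0 were left unused.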

Additional observations from a re-analysis of the deposited data

How the results depend on the processing

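The 8 factors at least 4-fold higher in EC stayed 8 under TMM factors, scaling by genes with a count in every cell, all cells of at least 100000 counts, unrounded counts, both repeats, no filter, medians in place of means, without EC cell 15 and without the EC cell highest in each gene. They were 9 at 2-fold, 7 at 8-fold and 9 without the TB cell highest in each gene, where ETV2 passed 4-fold. Leaving out the highest cell was chosen after seeing the data. TMM factors moved the median log2 ratio of all genes by 0.13, and the 70 ratios of a factor recomputed under the other alternatives kept their direction and their side of 4-fold. The number of factors detected in at least 50% of TB cells was 5 at 1 count, but 2 at 5 counts and 2 when libraries were thinned to 250000 counts, which asks for more counts or keeps fewer. The median rho over the 36 pairs in EC was 0.069 to 0.16, with the highest value under TMM factors and the lowest in EQ-75%. The number of pairs at 0.4 or above was 1, but 5 under TMM factors, 3 in EQ-Vary, 2 each with Pearson r, scaling by genes with a count in every cell and all cells of at least 100000 counts, and 0 without EC cell 15. The cause was not tested. Of 360 recomputed values for single pairs, 32 moved by more than 0.1. Depth limits detection of GATA2, LMO2 and SOX18 in EC most, which lost 19.03, 18.7 and 18.2 percentage points of cells at 250000 counts. No paired analysis was possible because EC and TB are different cells, compared without a test. The repeats of a cell were compared within the cell.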

Other observations

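Genes that mark other lineages also differed between the cell types. PRDM1, a transcriptional repressor of germ cells and other lineages, had a mean of 405 ± 569 CPM (SD) in EC and 3.87 ± 10.9 CPM in TB, and was detected in all 38 EC cells. GDF3, a TGF-beta family ligand of pluripotent cells, had 55.4 CPM in EC, in 20 of 38 cells, and 0.0706 CPM in TB. Of 7 germ cell genes tested, 3 were at least 4-fold higher in EC and 1 in TB, beside 10.8% and 16% of all genes tested. NANOS3, one of the 3, had 83.2 CPM in EC cell 15 and a count in only 1 other EC cell. DPPA3, another of the 3, had 124 CPM in EC cell 5, and its ratio was 3.60 without that cell.

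Of 11 mesenchymal genes tested, 1 was at least 4-fold higher in EC and 5 in TB, beside 10.8% and 16% of all genes tested. THY1, a surface glycoprotein, had 708 ± 392 CPM in EC and 23.4 ± 55.01 CPM in TB. The matrix genes LUM, COL3A1 and DCN had 3042, 735 and 429 CPM in TB, and COL3A1 and DCN had 2.41 and 1.87 CPM in EC. The collagen gene COL1A2 went the other way, by less than 4-fold. It had 840 ± 757 CPM in EC, the highest mean of the list there, and 294 ± 218 CPM in TB.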
